A study of Homo sapiens with 8 samples.

Results

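The interferon-stimulated genes described here are 43 genes that cells switch on when interferon reaches them. They were listed by name, as usual members of this program, at a time when earlier results of these arrays were known, and no measured value entered the rule. On the array table the 43 genes had 49 rows, which held 45 distinct features (a feature is 1 set of probes summarised into 1 value per array), of 29141 features tested for 20219 gene symbols. PSMB9 and TAP1 each had 3 identical rows, counted once, and USP18 and TRIM22 each had 2 features with different values. The cells were MIV-Luc, a luciferase-expressing form of MCF10CA1a, the metastatic line at the end of the MCF10A series and a model of basal-like breast cancer. They had been transduced with lentivirus and selected as pools, either with a scrambled hairpin (shSCR) or with 1 hairpin against IL13Rα2 (shIL13Rα2#2), so that every group carried the luciferase vector and a hairpin vector. Each line was mock-treated (− IL-13, called untreated below) or kept with IL-13 at 20 ng/ml during 16 h (+ IL-13). This gave 4 groups of 2 arrays, 8 arrays in all, named array A and array B within a group.

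The 4 groups can answer whether IL-13 alters interferon-stimulated genes, whether loss of IL13Rα2 does, and whether one alters the other. Interferons are secreted proteins that act through cell surface receptors and JAK kinases. Type I and type III interferons lead to a complex that holds STAT2 and IRF9 and binds the interferon-stimulated response element, whereas interferon gamma acts through the gamma-activated site. IL-13 acts through a different receptor, made of IL4Rα and IL13Rα1, and mainly through STAT6, which prefers a gamma-activated-like site with a spacer longer by 1 base. IL13Rα2 binds IL-13 with high affinity and is best known as a decoy. The interferon-stimulated genes themselves encode proteins that sense viral RNA, block viral replication, tag proteins with ISG15, present antigens and amplify the interferon signal.

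The targeted gene was checked first. IL13RA2 read 8.09 and 8.07 (log2 RMA units, used for all levels here) in shSCR (− IL-13), 9.33 and 9.36 in shSCR (+ IL-13), 6.34 and 6.52 in shIL13Rα2 (− IL-13), and 8.23 and 8.15 in shIL13Rα2 (+ IL-13). It was lower in the knockdown within each treatment (averaged log2 difference −1.40, limma adjusted p = 0.00105), but IL-13 raised it in both lines, and the IL-13-treated knockdown arrays lay just above the untreated shSCR arrays. The IL-13-inducible genes SERPINB3, SERPINB4 and CCL26 all rose with IL-13. Basal keratins, CDH1 and EPCAM read above the array medians on every array. KRT5 read 9.46 to 9.98, but KRT14 read 6.54 to 7.04, and EGFR, another basal marker, read 6.43 to 6.83. The luminal receptor genes read 3.03 to 3.45 for PGR, 3.76 to 4.40 over the 2 features of ESR1 and 5.17 to 5.46 for ERBB2. Of the 8 immune cell markers, PTPRC, the pan-leukocyte gene, read 2.27 to 2.71, but CD14 read 5.10 to 5.71, CD79A 4.91 to 5.51 and NCR1 4.80 to 5.23. None passed the test with IL-13 or with the knockdown, which concerns differences and not presence. At an unadjusted limma p under 0.05, 1 of the 8 was lower and none higher with IL-13, against 3.85% and 4.88% of all features. Of the 11 features of the basal list, 1 was higher and 10 were lower with IL-13 (KRT6A, for example, by −0.29, limma adjusted p = 0.358), and 5 were higher and 6 lower with the knockdown. TP63 alone passed, and it rose with both IL-13 (0.84, limma adjusted p = 0.0463) and the knockdown (0.94, limma adjusted p = 0.0225), from 4.87 and 5.06 in shSCR (− IL-13) to 6.98 and 6.50 in shIL13Rα2 (+ IL-13). The array medians lay between 5.02 and 5.06, and arrays of a group correlated at r = 0.992 to 0.993 against 0.988 to 0.993 for arrays of different groups. The 2 arrays of a group are described as biological replicates, with nothing said of culture batches, so p-values measure the spread between these arrays. In bulk cells, fewer responding cells and less RNA per cell cannot be told apart.

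Promoter sequence was at hand for 34 of the 43 genes (RefSeq, GRCh38.p14, 250 bases before to 50 after the start, some genes with several starts). The interferon-stimulated response element, searched as GAAANNGAAA on both strands, was present for 21 of the 34 genes (61.8%), against 4.38% of 27305 genes and 3.57% of 35116 promoters in the table. The gamma-activated site, searched as TTCNNNGAA, was present for 12 genes (35.3%), against 9.38% of all genes. The STAT6-type site, searched as TTCNNNNGAA, was present for 4 genes (11.8%; IFI27, IFIT3, OAS1 and DDX58), against 7.80% of all genes. A match means only that these letters stand in the window. The 7 stretches below, each 150 bases that end just before a start site and run 5′ to 3′ on the gene's own strand, are shown because the values turn on these genes: IFIT3 and PARP14 rose with IL-13, PSMB9, IRF1 and DDX58 had the largest differences among the other members, TAP1 starts beside PSMB9 on the opposite strand, and ISG15 is a classical member that IL-13 did not raise. Capitals mark the response element in IFIT3, TAP1 and ISG15, the gamma-activated site in IRF1, the STAT6-type site in DDX58, and in PARP14 first a gamma-activated site and then a response element.
IFIT3 (chr10:89332379-89332528, plus strand): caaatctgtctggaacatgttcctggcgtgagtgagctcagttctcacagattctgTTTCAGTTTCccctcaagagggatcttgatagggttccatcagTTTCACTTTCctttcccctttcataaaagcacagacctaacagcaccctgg
PARP14 (chr3:122680689-122680838, plus strand): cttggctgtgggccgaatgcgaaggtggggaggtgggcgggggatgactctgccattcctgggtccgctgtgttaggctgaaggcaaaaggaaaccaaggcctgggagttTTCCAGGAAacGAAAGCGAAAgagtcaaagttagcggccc
PSMB9 (chr6:32854042-32854191, plus strand): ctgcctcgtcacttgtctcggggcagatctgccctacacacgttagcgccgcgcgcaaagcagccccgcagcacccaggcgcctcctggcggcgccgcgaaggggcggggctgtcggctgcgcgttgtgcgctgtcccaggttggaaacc
TAP1 (chr6:32853705-32853854, minus strand): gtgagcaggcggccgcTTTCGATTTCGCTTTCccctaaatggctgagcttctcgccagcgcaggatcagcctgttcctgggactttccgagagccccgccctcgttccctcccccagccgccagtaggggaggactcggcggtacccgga
DDX58 (chr9:32526197-32526346, minus strand): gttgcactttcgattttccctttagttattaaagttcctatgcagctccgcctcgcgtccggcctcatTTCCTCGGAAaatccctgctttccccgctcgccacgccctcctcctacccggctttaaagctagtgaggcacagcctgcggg
IRF1 (chr5:132490774-132490923, minus strand): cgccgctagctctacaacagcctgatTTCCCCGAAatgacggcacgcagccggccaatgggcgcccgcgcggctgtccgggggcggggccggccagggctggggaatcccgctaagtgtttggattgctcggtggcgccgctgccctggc
ISG15 (chr1:1013347-1013496, plus strand): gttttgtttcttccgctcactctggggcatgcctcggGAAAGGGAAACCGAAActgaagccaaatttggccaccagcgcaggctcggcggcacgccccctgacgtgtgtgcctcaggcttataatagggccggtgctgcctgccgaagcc

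IL-13 raised IFIT3 and PARP14 over both cell lines, and no other member passed the test. IFIT3, an antiviral protein that binds and stabilises IFIT1, read 5.67 and 5.83 in shSCR (− IL-13), 6.56 and 6.40 in shSCR (+ IL-13), 5.73 and 5.77 in shIL13Rα2 (− IL-13), and 6.67 and 6.73 in shIL13Rα2 (+ IL-13). All 4 treated arrays lay above all 4 untreated ones. Its averaged log2 difference was 0.84 (SE 0.08, a 1.79-fold rise, limma adjusted p = 0.00894). PARP14, an ADP-ribosyltransferase first described as a cofactor of STAT6, read 8.11 and 8.24, then 8.92 and 8.75 with IL-13 in shSCR cells, and 8.36 and 8.31, then 8.92 and 8.84 with IL-13 in knockdown cells. Again no treated array overlapped an untreated one, and the averaged log2 difference was 0.61 (SE 0.08, 1.52-fold, limma adjusted p = 0.0377). These 2 of 45 features were the ones past an adjusted p of 0.05, where 0.233% of all features passed, and neither reached the 2-fold change that the study also asked for, as 0.0927% of all features did.

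The PARP14 call was lost when any 1 of the 8 arrays was left out, with log2 differences of 0.56 to 0.65 and limma adjusted p of 0.0944 to 0.191. The IFIT3 difference stayed between 0.80 and 0.88, and its call was lost without array A of shSCR (+ IL-13) (limma adjusted p = 0.0579), without array A or B of shIL13Rα2 (− IL-13) (limma adjusted p = 0.0686 and 0.0606), and without array A or B of shIL13Rα2 (+ IL-13) (limma adjusted p = 0.0568 and 0.0718). The methods' one-way analysis of variance, with its p-values adjusted, called neither gene (adjusted p = 0.0747 for IFIT3 and 0.111 for PARP14).

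**Figure D1:**
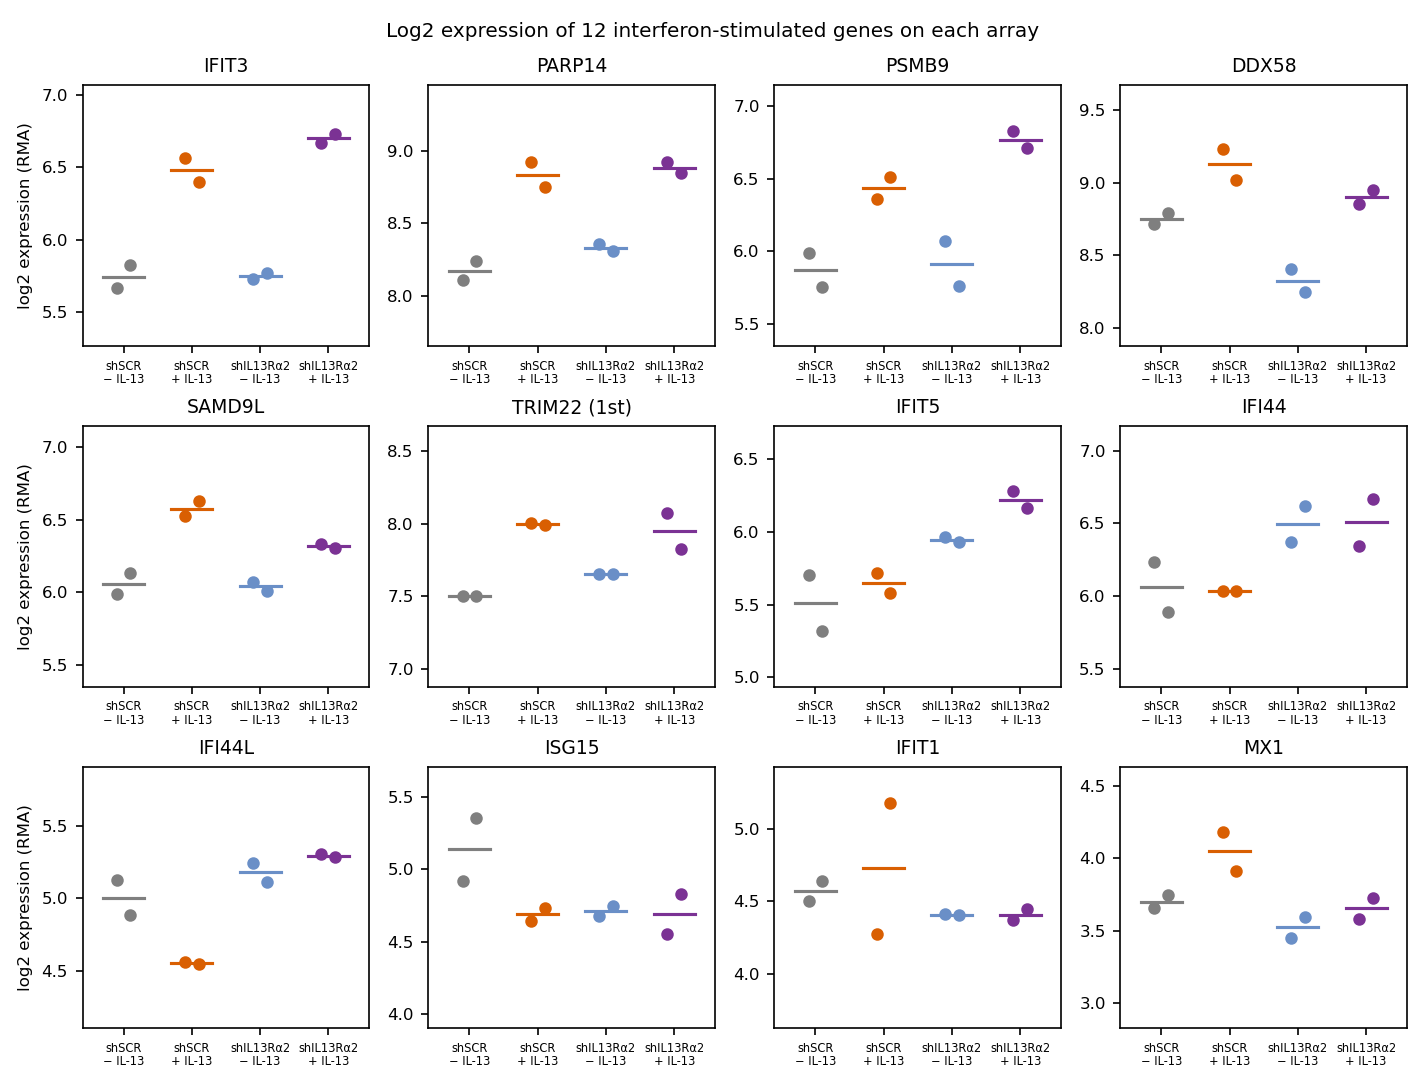
Log2 RMA expression (vertical axis, 1 scale length in every panel) of 12 interferon-stimulated genes on each of the 8 arrays, with a point per array and a bar at the mean of each group of 2. IFIT3 and PARP14 stood higher on all 4 IL-13 arrays, IFIT5 and IFI44 stood higher on all 4 shIL13Rα2 arrays, and ISG15, IFIT1 and MX1 overlapped between treatments.

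Among the genes of antigen processing, PSMB9 had a larger difference than PARP14 but a wider spread. PSMB9, a catalytic subunit of the immunoproteasome, read 5.99 and 5.75 in shSCR (− IL-13), 6.36 and 6.51 in shSCR (+ IL-13), 6.07 and 5.76 in shIL13Rα2 (− IL-13), and 6.83 and 6.71 in shIL13Rα2 (+ IL-13). The treated and untreated arrays did not overlap, and the averaged log2 difference was 0.71 (SE 0.10, limma adjusted p = 0.0551), just outside the threshold. It passed with the dimmest 30% of features left out (limma adjusted p = 0.0267), after a further quantile normalization (limma adjusted p = 0.0475) and under a limma prior that follows intensity and resists outliers (limma adjusted p = 0.00485). It did not pass with any 1 array left out (limma adjusted p = 0.103 to 0.224) or in the adjusted analysis of variance (adjusted p = 0.320). TAP1, a part of the peptide transporter that supplies class I molecules, differed by 0.10 (limma adjusted p = 0.789).

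The RNA sensors had DDX58 at the top. DDX58 (RIG-I), which detects viral RNA ends, read 8.71 and 8.79, then 9.23 and 9.02 with IL-13 in shSCR cells, and 8.41 and 8.25, then 8.85 and 8.95 with IL-13 in knockdown cells. Every treated array was above every untreated one, by an averaged log2 difference of 0.47 (limma adjusted p = 0.130). IFIH1 (MDA5), which detects long double-stranded RNA, differed by 0.24 with no overlap, and DHX58 (LGP2), which modulates both sensors, by 0.06.

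Of the SAMD9 proteins, which restrain viral growth and cell growth, SAMD9L read 5.99 and 6.13, then 6.52 and 6.63 with IL-13 in shSCR cells, and 6.07 and 6.01, then 6.33 and 6.31 with IL-13 in knockdown cells. Its arrays did not overlap between treatments (log2 difference 0.40, limma adjusted p = 0.156), whereas SAMD9 differed by −0.09. PARP9, which works with the ubiquitin ligase DTX3L, differed by 0.06.

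TRIM22, an antiviral ubiquitin ligase, had its main feature at 7.50 and 7.50, then 8.003 and 7.991 with IL-13 in shSCR cells, and at 7.66 and 7.66, then 8.07 and 7.82 with IL-13 in knockdown cells. No treated array overlapped an untreated one (log2 difference 0.39, limma adjusted p = 0.185). PSMB9, DDX58, SAMD9L and this TRIM22 feature were named from the members without overlap, so that their arrays stood apart follows from the rule. The second, dimmer feature of TRIM22 read 3.01 and 2.88, then 3.69 and 3.48 with IL-13 in shSCR cells. In knockdown cells it read 3.33 and 3.25, then 3.57 and 3.24 with IL-13. It differed by 0.38 with overlapping arrays. Among the guanylate-binding proteins, GTPases known for their response to interferon gamma, GBP3 differed by 0.39 with no overlap and GBP1 by 0.32 with overlap, while GBP2 differed by −0.12.

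Of the transcription factors, IRF1 stood apart in size but not in precision. IRF1, a direct target of the gamma-activated site pathway, read 3.56 and 4.02, then 4.45 and 4.71 with IL-13 in shSCR cells, and 3.97 and 3.74, then 4.54 and 3.96 with IL-13 in knockdown cells. One treated array of the knockdown line lay inside the untreated range, and the log2 difference was 0.59 (SE 0.16, limma adjusted p = 0.349). STAT2, IRF7 and IRF9, the core of the type I response, differed by 0.13, 0.11 and −0.05.

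None of the genes of the ISG15 system, and of the IFIT genes none but IFIT3, passed with IL-13. ISG15, a ubiquitin-like protein that is attached to other proteins, read 4.92 and 5.35, then 4.65 and 4.74 with IL-13 in shSCR cells, and 4.68 and 4.74, then 4.56 and 4.83 with IL-13 in knockdown cells (averaged log2 difference −0.23, limma adjusted p = 0.630). Its conjugating enzymes UBE2L6 and HERC5, and HERC6, a relative of HERC5, differed by 0.20, 0.20 and −0.15, and HERC5 was the one without overlap. The protease USP18, which removes ISG15, differed by −0.10 and 0.06 on its 2 features. IFIT1, which binds uncapped viral RNA, read 4.28 and 5.18 on the 2 arrays of shSCR (+ IL-13), a gap wider than any difference between its groups, and differed by 0.08 on average. IFIT2 and IFIT5 differed by 0.19 and 0.20.

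The OAS genes, whose products switch on an RNA-degrading enzyme, gave −0.02 for OAS1, −0.05 for OAS2, 0.04 for OAS3 and 0.25 for OASL, a relative without the enzyme activity. The Mx GTPases gave 0.24 for MX1 and −0.10 for MX2. The IFI genes lay between −0.17 for IFI44L and 0.13 for IFI27, with IFI6 at −0.14, IFI35 at 0.11 and IFI44 at −0.01. Of the remaining effectors, RSAD2 (viperin) gave −0.05, its neighbour CMPK2 0.10, XAF1 −0.00, EPSTI1 −0.19 and SP110 0.13. BST2 (tetherin), which holds budding virus at the cell surface, had the lowest difference of all members, −0.31 (limma adjusted p = 0.441), with no overlap between treated and untreated arrays.

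Counted over the 45 features, 29 were higher and 16 lower with IL-13, and their median log2 difference was 0.10 against 0.0084 over all tested features. At an unadjusted limma p under 0.05, 14 were higher and 1 lower, where 4.88% and 3.85% of all features were. The arrays of the 2 treatments did not overlap for 9 features that were higher and 1 that was lower, against 2.85% and 1.93% of all features. Of the features with a promoter sequence, the 21 with a response element had a median of 0.08 and the 13 without had a median of 0.13. The 4 with a STAT6-type site ranged from −0.02 for OAS1 to 0.84 for IFIT3, and the match of IFIT3 lay after its start.

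The 2 cell lines share no array, so each gives its own account of IL-13. In shSCR cells the highest members were IRF1 (0.79), IFIT3 (0.73) and PARP14 (0.66), and the lowest were IFI44L (−0.45), ISG15 (−0.45) and BST2 (−0.40). In knockdown cells the highest were IFIT3 (0.95), PSMB9 (0.85) and DDX58 (0.57), and the lowest were IFI6 (−0.37), MX2 (−0.24) and BST2 (−0.23). No member passed an adjusted p of 0.05 in either line alone, where 0.0618% of all features passed in each, and 0.0583% and 0.0618% also changed over 2-fold. The smallest limma adjusted p was 0.145 in shSCR cells and 0.0532, for IFIT3, in knockdown cells. At an unadjusted limma p under 0.05, 14 members were higher and 4 lower in shSCR cells, against 3.64% and 3.15% of all features. In knockdown cells 10 were higher and 1 lower, against 3.96% and 2.97%.

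Of the 45 features, 23 were higher and 9 lower with IL-13 in both lines (71.1% in the same direction, against 55.0% of all features). The correlation of the 2 lines was r = 0.61 (rho = 0.55) over the 45 features and r = 0.21 (rho = 0.15) over all features, as a description across features, which are not independent. In each line taken alone, the treated arrays lay above the untreated for 10 features, namely IFIT3, PARP14, PSMB9, DDX58, IFIH1, SAMD9L, GBP1, GBP3, HERC5 and the main TRIM22 feature, against 5.53% of all features. BST2 was the single member whose arrays lay below in both, against 4.38%.

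**Figure D2:**
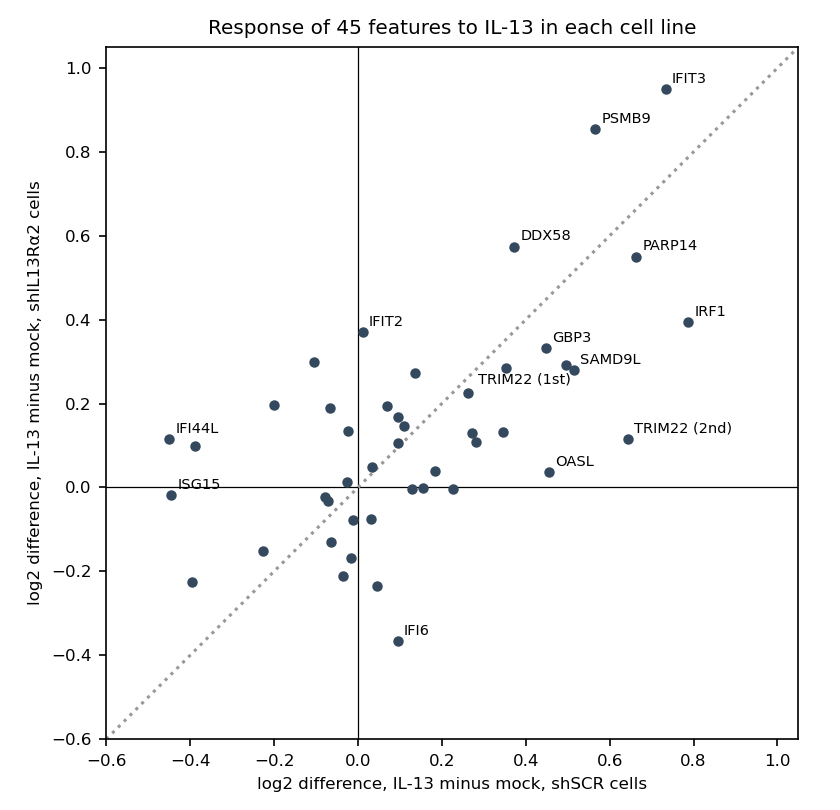
Log2 difference of each of the 45 features between IL-13 and untreated arrays, in shSCR cells (horizontal axis) and in shIL13Rα2 cells (vertical axis), with equal differences on the dotted line. IFIT3, PSMB9, PARP14 and DDX58 were high in both lines, while IFI44L and ISG15 were low in shSCR cells and near 0.12 and −0.02 in knockdown cells.

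Several members sit side by side in the genome, and on each array the difference between 2 neighbours can be read without comparing levels of different probes as such, by its change with IL-13. The 13 pairs, members that follow each other among the protein-coding genes of RefSeq (with DTX3L added), were formed after values were seen, and their changes carry no test. For IFIT3 and its neighbour IFIT2 on chromosome 10, the log2 value of IFIT2 minus that of IFIT3 changed by −0.65 with IL-13, and no treated array overlapped an untreated one. For PSMB9 and TAP1 on chromosome 6, which start close together on opposite strands, TAP1 minus PSMB9 changed by −0.61, again with no overlap. SAMD9 minus SAMD9L changed by −0.49 on chromosome 7, and PARP9 minus DTX3L, another pair that starts close together, by −0.42 on chromosome 3, both with no overlap. In these 4 pairs IFIT3, PSMB9, SAMD9L and DTX3L moved further up with IL-13 than their neighbours. The other 9 pairs, among them MX1 with MX2, GBP1 with GBP2 and OAS1 with OAS3, overlapped between treatments. Over all 13556 pairs of neighbouring protein-coding genes with features, 5.58% did not overlap, as against 4 of these 13, a set formed with its values known.

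The knockdown of IL13Rα2, averaged over both treatments, left every member short of the test, with IFIT5, IFI44L and IFI44 the highest and DDX58 the lowest. None of the 45 features passed a limma adjusted p of 0.05, where 0.446% of all features passed and 0.0755% also changed over 2-fold. IFIT5, an IFIT protein that binds RNA on its own, read 5.71 and 5.32 in shSCR (− IL-13), 5.72 and 5.58 in shSCR (+ IL-13), 5.97 and 5.93 in shIL13Rα2 (− IL-13), and 6.28 and 6.16 in shIL13Rα2 (+ IL-13). All 4 knockdown arrays lay above all 4 shSCR arrays (log2 difference 0.50, SE 0.10, limma adjusted p = 0.120). IFI44, a protein induced in many viral infections, read 6.23 and 5.89, then 6.04 and 6.03 with IL-13 in shSCR cells, and 6.37 and 6.62, then 6.34 and 6.67 with IL-13 in knockdown cells, again with no overlap (log2 difference 0.45, limma adjusted p = 0.217). Its neighbour IFI44L read 5.12 and 4.89, then 4.56 and 4.55 in shSCR cells, and 5.24 and 5.11, then 5.30 and 5.28 in knockdown cells. One untreated array of each line overlapped, and the log2 difference was 0.46 (limma adjusted p = 0.0897).

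RSAD2, an antiviral enzyme, read 3.38 and 3.29, then 3.34 and 3.31 in shSCR cells, and 3.44 and 3.84, then 3.51 and 3.61 in knockdown cells. Its arrays did not overlap (log2 difference 0.27, limma adjusted p = 0.389). OAS1 and DHX58 lay lower in every knockdown array, by −0.18 and −0.17. OAS1 read 7.74 and 7.89, then 7.80 and 7.90 in shSCR cells, and 7.71 and 7.67, then 7.60 and 7.63 in knockdown cells. DHX58 read 4.11 and 4.11, then 4.14 and 4.33 in shSCR cells, and 3.995 and 4.0045, then 4.08 and 3.91 in knockdown cells. For both genes the step between the lines was small beside the 0.84 of IFIT3 with IL-13. IFIT5, IFI44, RSAD2, OAS1 and DHX58 were named from the members without overlap, so that their arrays stood apart follows from the rule. DDX58 had the lowest averaged difference, −0.33 (limma adjusted p = 0.230), followed by MX1 (−0.28) and GBP1 (−0.28).

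Over the 45 features, 15 were higher and 30 lower in the knockdown, with a median log2 difference of −0.08 against −0.0060 over all features. At an unadjusted limma p under 0.05, 4 were higher and 7 lower, against 5.31% and 6.03% of all features. The arrays did not overlap for 3 higher and 2 lower features, against 3.26% and 3.87%. The 2 treatments share no array, and 9 members were higher and 20 lower in both (64.4% in the same direction, against 57.4% of all features). The correlation of the 2 treatments was r = 0.40 over the 45 features and 0.24 over all. In each treatment taken alone, the knockdown arrays lay above the shSCR arrays for 4 features (IFIT5, IFIH1, IFI44 and RSAD2), against 5.67% of all features. They lay below for 7 (OAS1, MX1, GBP1, GBP3, DDX58, DHX58 and STAT2), against 6.42%. Without IL-13 the highest members were IFIT5 (0.43), IFI44 (0.43) and IFI6 (0.42), and the lowest were DDX58 (−0.43), ISG15 (−0.43) and TAP1 (−0.31). With IL-13 in both lines the highest were IFI44L (0.74), IFIT5 (0.57) and IFI44 (0.47), and the lowest were OASL (−0.41), MX1 (−0.39) and IRF1 (−0.33). No member passed a limma adjusted p of 0.05 in either treatment, where 0.0686% and 0.0549% of all features passed and 0.0652% and 0.0515% also changed over 2-fold. At an unadjusted limma p under 0.05, 4 were higher and 3 lower without IL-13, against 4.28% and 5.23% of all features. With IL-13, 4 were higher and 5 lower, against 3.44% and 3.63%.

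The cells that had both the knockdown and IL-13 were also set against untreated shSCR cells. This comparison shares its arrays with those above, and at these arrays IL13RA2 itself was near its untreated shSCR level. IFIT3 rose by 0.95 on the log2 scale (SE 0.11, 1.94-fold, limma adjusted p = 0.0252), and it was 1 of 45 features past the test, where 0.285% of all features passed and 0.154% also changed over 2-fold. The call was lost without any 1 of the 8 arrays (limma adjusted p = 0.0501 to 0.213). PSMB9 differed by 0.90 (limma adjusted p = 0.0729), PARP14 by 0.71 (limma adjusted p = 0.0698), IFIT5 by 0.71 (limma adjusted p = 0.153), and TRIM22 by 0.45 and 0.46 on its 2 features. PSMB9, PARP14, IFIT5 and TRIM22 were named from the members without overlap, so that they lay above both untreated shSCR arrays follows from the rule. Of the 45 features, 15 were higher and 8 lower without overlap, against 6027 and 5709 of all 29141 features. ISG15 (−0.44) and BST2 (−0.42) were the lowest. At an unadjusted limma p under 0.05, 10 members were higher and 2 lower, against 4.79% and 4.78% of all features.

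Whether IL-13 acted differently once IL13Rα2 was reduced was tested by the interaction, the difference in knockdown cells minus that in shSCR cells. No member passed a limma adjusted p of 0.05, and neither did any other feature (0% of all features). The highest interactions were IFI44L (0.57), HERC6 (0.49) and ISG15 (0.43), and the lowest were the second TRIM22 feature (−0.53), IFI6 (−0.46) and OASL (−0.42). At an unadjusted limma p under 0.05, 3 were higher and 3 lower, against 2.44% and 2.03% of all features. For IFIT3 the interaction was 0.22, with a 95% interval from −0.16 to 0.59, and for PARP14 it was −0.11, from −0.48 to 0.26.

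The rest of the pathway was read from lists of interferon genes (21), receptors and JAK-STAT relay (18), the relay of nucleic acid sensing (14) and further interferon-stimulated genes (49), of which 99 of 102 symbols had a feature. With IL-13 averaged over both lines, none of their 114 features passed a limma adjusted p of 0.05. Of the interferon genes, IFNB1 lay between 2.57 and 3.04 on all arrays (log2 difference 0.07), IFNG between 2.31 and 3.16 (−0.22), IL29, an interferon lambda, between 5.08 and 5.69 (−0.02) and IL28A, another, between 5.04 and 5.71 (0.25). None of the 20 was higher, and 1 was lower, at an unadjusted limma p under 0.05, against 4.88% and 3.85% of all features. The interferon receptor gene IFNAR1 differed by −0.09 and IFNGR1 by −0.07.

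Among the further interferon-stimulated genes, 10 of 62 features were higher and none lower with IL-13 at an unadjusted limma p under 0.05, against 4.88% and 3.85% of all features. The highest were APOL6 (0.59, limma adjusted p = 0.0947) and DTX3L (0.47, limma adjusted p = 0.0840), and the immunoproteasome gene PSMB8 differed by 0.34. In the sensing relay TLR3 differed by 0.40 and the RNA-dependent kinase EIF2AK2 by 0.26, neither past the adjusted test. With the knockdown, TNFSF10 (TRAIL, a death ligand) rose and B2M (the light chain of class I molecules) fell, 1 feature in each direction of the 62, where 0.446% of all features passed in either direction. TNFSF10 read 6.21 and 6.20, then 6.49 and 6.43 in shSCR cells, and 6.82 and 6.66, then 7.15 and 7.08 in knockdown cells, with no overlap (log2 difference 0.60, limma adjusted p = 0.0231). B2M read 9.55 and 9.52, then 9.41 and 9.48 in shSCR cells, and 8.94 and 8.81, then 9.03 and 9.15 in knockdown cells (log2 difference −0.51, limma adjusted p = 0.0446). TNFSF10 also rose in the cells with both the knockdown and IL-13, by 0.91 (limma adjusted p = 0.0236). The calls of TNFSF10 and B2M were not tried under the alternatives or with an array left out. The knockdown rests on 1 hairpin, and an effect of that hairpin on other transcripts cannot be told apart from the loss of IL13Rα2.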

How the data were processed

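RNA of 8 cultures in 4 groups was hybridised to Affymetrix GeneChip arrays. The sources name an exon array, whereas the deposited table has gene-level features in the form of a gene array; which was used is not settled here, and each value is read as 1 value per gene-level feature. The deposited values are log2 expression per feature, made by the authors with RMA (background correction, quantile normalization and summary over probes) in Affymetrix Expression Console version 1; RMA makes the arrays share 1 distribution, so a shift of all genes would not be seen. Of 33297 features, 4156 were controls or spike-ins and stayed out. The values were fitted as deposited with limma 3.58.1 in R 4.3.3, by group, over 29141 features and all arrays (4 residual and 3.86 prior degrees of freedom), with Benjamini-Hochberg adjustment over all of them. A feature passed at an adjusted p under 0.05, and the study's fold change above 2 was counted beside it. With 2 arrays a group, their number sets the precision. The fit was tested on simulated data.

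The members, the pathway lists and the markers were chosen with earlier results of these data known. Array values are printed for members past the test and for the 6 largest differences without overlap in the averaged and the combined comparisons, and the 3 highest and 3 lowest members are named elsewhere; other members are given by role, and the arrays of IRF1, ISG15 and IFI44L were added after their values were seen. Symbols were matched to RefSeq names (42 of 43 directly, DDX58 as RIGI). The USP18 features may share probes with related sequences. Alternatives were another limma prior, a fit of the 2 groups alone, a one-way analysis of variance, 2 further normalizations and a filter on dim features. Other fold changes, no adjustment and each array left out were also tried. In the averaged comparisons the analysis of variance had no term for the cell line or the treatment averaged over. Pathway genes that are not named enter through the counts alone.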

Additional observations from a re-analysis of the deposited data

Results flagged for a closer look

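HERC6, IFI44L and XAF1 had both IL-13 arrays below both untreated arrays in shSCR cells and above them in knockdown cells. The log2 differences were −0.39 and 0.10 for HERC6 (interaction 0.49), −0.45 and 0.12 for IFI44L (interaction 0.57), and −0.20 and 0.20 for XAF1 (interaction 0.40). TAP1 had both knockdown arrays below both shSCR arrays without IL-13 (−0.31) and above them with IL-13 (0.10), with an interaction of 0.40. HERC6 and XAF1, already named for IL-13, turned with the knockdown in the same way as TAP1. The limma adjusted p of the interaction was 0.989 for each of these 4 genes. Arrays moved apart in opposite directions for 4.70% of all features with IL-13 and for 4.41% with the knockdown.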

How the results depend on the processing

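Under a limma prior that follows intensity and resists outliers, 6 members passed an adjusted p of 0.05 with IL-13 (2 as reported), 3 with the knockdown (0 as reported) and 4 with both together (1 as reported). With the dimmest 30% of features left out, 1 passed with the knockdown and 3 with both together, and the median interaction was 0.0126 (−0.0368 as reported). The adjusted analysis of variance called 0 with IL-13 and 0 with both together, and the fit of those 2 groups alone called 0. At a fold change above 1.5, or with none, 2 members were called with IL-13 and 1 with both together, against 0 above 2-fold, and 6 interactions passed without adjustment. Leaving out 1 array gave 0 to 1 members past the test with IL-13 and 0 to 0 with both together. Without adjustment it gave 0 to 2 lower members with IL-13, and 3 to 5 higher and 3 to 7 lower members with the knockdown. The median differences ranged from 0.0655 to 0.130 for IL-13 in shSCR cells, 0.0916 to 0.115 for IL-13 in knockdown cells, −0.0626 to −0.0084 for the knockdown without IL-13, −0.126 to −0.0379 with it, 0.0491 to 0.0792 with both together, 0.0782 to 0.111 for IL-13 averaged, −0.0901 to −0.0516 for the knockdown averaged and −0.126 to −0.0105 for the interaction. The sign of 2 small differences turned: IFIT3 with the knockdown without IL-13 (0.00387 as reported, −0.0762 to 0.0840) and MX2 with IL-13 in knockdown cells (−0.24 as reported, −0.587 to 0.114). The cause of these changes was not tested, beyond the fewer features or arrays in the fit. Of the single values under the alternatives, 674 kept their side of the threshold and direction, 76 passed newly, 25 no longer passed and 3 changed sign. These counts include the alternatives without adjustment, where an unadjusted p under 0.05 was taken as passing. The 76 are therefore not all calls gained under an adjusted p. No paired analysis was possible because the columns carry no replicate number. The number of arrays and the small differences limit what could be called.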
